A study of Mus musculus with 16 samples.

Results

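The response of the liver to an overnight fast was examined in mice with a hepatocyte knockout of Slc25a47, a member of the mitochondrial carrier family that is expressed mainly in liver. The comparison set the 4 fasted knockout (KO) libraries against the 4 fed KO libraries, 8 of the 16 libraries in the series, and covered all genes with enough reads to be tested. The other 8 libraries, from fasted and fed control mice (WT), gave the response against which the KO response was tested. All 16 libraries came from livers of male C57BL/6 mice of a strain with the Slc25a47tm1c(EUCOMM)Hmgu allele, aged 9 weeks.

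The 4 groups were fed KO (genotype Slc25a47hep-/-), KO after overnight fasting, fed WT (Slc25a47hep+/+) and WT after overnight fasting. Every group carries the same strain designation, so the controls are of that strain too. Which Cre line removes the gene is not stated in the labels. The labels do not state that each library is 1 mouse, so p-values measure the spread between these libraries. In bulk liver RNA, fewer cells of a type and less RNA per cell cannot be told apart.

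During a fast, the liver moves from storing to releasing fuel. Falling insulin lowers the SREBP-1c and ChREBP programmes of glycolysis and fat synthesis, and glucagon, glucocorticoids and fatty acids from adipose tissue favour gluconeogenesis and, through the nuclear receptor PPAR alpha, fatty acid oxidation and ketone body synthesis. Slc25a47 is a carrier of the inner membrane of mitochondria, the organelles where much of the oxidation and the first steps of gluconeogenesis take place.

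The targeted gene (ENSMUSG00000048856, GRCm38 chr12:108836046-108856815, plus strand) was measured at 81.8, 123, 153 and 146 CPM (reads of the gene per 1 M gene reads of the library, after scaling between libraries by TMM, the trimmed mean of M values) in the fed KO libraries and at 331, 315, 237 and 163 CPM in the fasted KO libraries. It stood at 461 to 836 CPM in fed WT and 855 to 1139 CPM in fasted WT libraries, so that every KO library lay below every WT library. Where in the gene the KO reads lie is not given by counts per gene. KO libraries held 19.6 to 24.1 M gene reads. The first principal component of the 8 KO libraries held 59.2% of the variance and set the 4 fasted libraries apart from the 4 fed ones. Hepatocyte markers, the defining genes of the tissue, had reads for all 21 listed members. Transcripts of the exocrine pancreas summed to 87.1 CPM in fasted KO replicate 1 and to 5.27 to 25.7 CPM in the other KO libraries, and fasted WT replicates 2 and 4 held more of them, up to 1982 CPM. The share of reads in no gene was 3.14% to 3.62% in fed and 3.83% to 4.29% in fasted KO libraries, and that in the 50 most abundant genes was 35.0% to 37.5% and 39.3% to 41.4%, without overlap. Both, with the mitochondrial share and the endothelial, bile duct and adipocyte marker sums given below, were the 6 of 15 library measures that reached the smallest possible p (0.0286, adjusted p = 0.0714; exact permutation test, two-sided, 4 against 4). The part of these measures in the changes of single genes was not tested.

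Of 13905 genes tested with edgeR's quasi-likelihood test, 5754 passed an adjusted p of 0.05 (Benjamini-Hochberg) in KO liver. Higher after the fast were 2935 genes, or 21.1%, and lower were 2819, or 20.3%. Changes of at least 2-fold made up 640 of the higher and 539 of the lower genes. Fasted and fed libraries did not overlap for 38.2% of all genes. The balance of directions depended on scaling: with library totals in place of TMM factors, 2216 genes were called higher against 3601 called lower, and the all-gene median shifted from 0.00 to -0.09 (log2). In WT liver, the same test called 16.2% of genes higher and 18.3% lower.

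The largest rise by the naming rule was that of Cidec (ENSMUSG00000030278, chr6:113424634-113435760, minus strand), which encodes a protein that enlarges lipid droplets. Its level was 0.734, 0.881, 1.11 and 0.873 CPM in the fed KO libraries and 64.9, 80.05, 63.99 and 98.6 CPM in the fasted ones. The 2 groups lay far apart, with a log2 fold change of 6.4 ± 0.26 (SE; adjusted p = 3.57e-10), or 84.6-fold. Cidec is also on the list of 11 adipocyte markers. Of the 7 markers tested, Cidec, Lipe and Pnpla2 were higher and Car3, described below, was lower. The summed level of the list was 1369 to 1943 CPM fed and 327 to 458 CPM fasted, without overlap. Car3 alone made up 1281 to 1859.8 CPM of it fed and 63.7 to 193 CPM fasted. Of the defining markers, Adipoq had 10 reads over the 4 fed and 28 over the 4 fasted KO libraries, Plin1 had 5 and 16 and Lep had 0 in both, against 88 and 7592 for Cidec. Cntnap1, known as an axonal adhesion gene, was at 2.86, 2.72, 2.46 and 2.14 CPM fed and 27.5, 27.7, 36.05 and 52.5 CPM fasted (3.81 ± 0.30; adjusted p = 3.57e-07). Rhof, which encodes a small GTPase of actin filopodia, was at 0.693, 0.613, 0.729 and 0.291 CPM fed and 7.26, 5.95, 6.39 and 9.52 CPM fasted (3.61 ± 0.27; adjusted p = 1.22e-08). No fed KO library approached a fasted one for these genes, but the naming rule admitted only genes without overlap. Other rises of this rank were those of Agap2 (3.05 ± 0.32), the basement membrane gene Lamb3 (2.87 ± 0.25), the secreted growth regulator gene Cgref1 (3.0 ± 0.31), the antisense transcript Ctcflos (3.11 ± 0.16) and Mt2 (2.86 ± 1.05), a metallothionein gene. Leaving out any 1 KO library other than fed KO replicate 4 ended the Mt2 call (adjusted p = 0.057 to 0.104), as did the replicate block (0.0593) and no filter on low counts (0.0779). The other 4 of the 12 largest rises, Cyp4a10, Cyp4a14, Ehhadh and Inhbe, are described with their groups.

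The largest fall was that of Chrna4 (ENSMUSG00000027577, chr2:181018380-181043546, minus strand), a nicotinic acetylcholine receptor subunit gene. It was measured at 10.1, 19.2, 7.6 and 14.6 CPM in fed KO and at 0.252, 0.081, 0.125 and 0.0777 CPM in fasted KO libraries (-6.54 ± 0.66; adjusted p = 5.89e-06). Hsd3b5, a steroid dehydrogenase gene with higher levels in male liver, was at 64.04, 66.1, 10.8 and 15.9 CPM fed and 1.55, 2.59, 2.84 and 2.84 CPM fasted (-3.99 ± 0.59; adjusted p = 0.000178). Its fed KO libraries 1 and 2 were several times above libraries 3 and 4. All 4 exceeded the fasted ones, as the naming rule required. Car3, a carbonic anhydrase gene, went from 1576 ± 241 to 132 ± 57.7 CPM (mean ± SD, n = 4; log2 fold change -3.58 ± 0.33). The glutathione transferase gene Gstm3 (-3.43 ± 0.35), the lectin gene Clec2h (-3.64 ± 0.65), Cabyr (-3.29 ± 0.64) and Mpp4 (-3.22 ± 0.38) also stood among the 12 largest falls. The remaining 5, Derl3, Sdf2l1, Fdps, Thrsp and Fasn, belong to groups below.

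**Figure D1:**
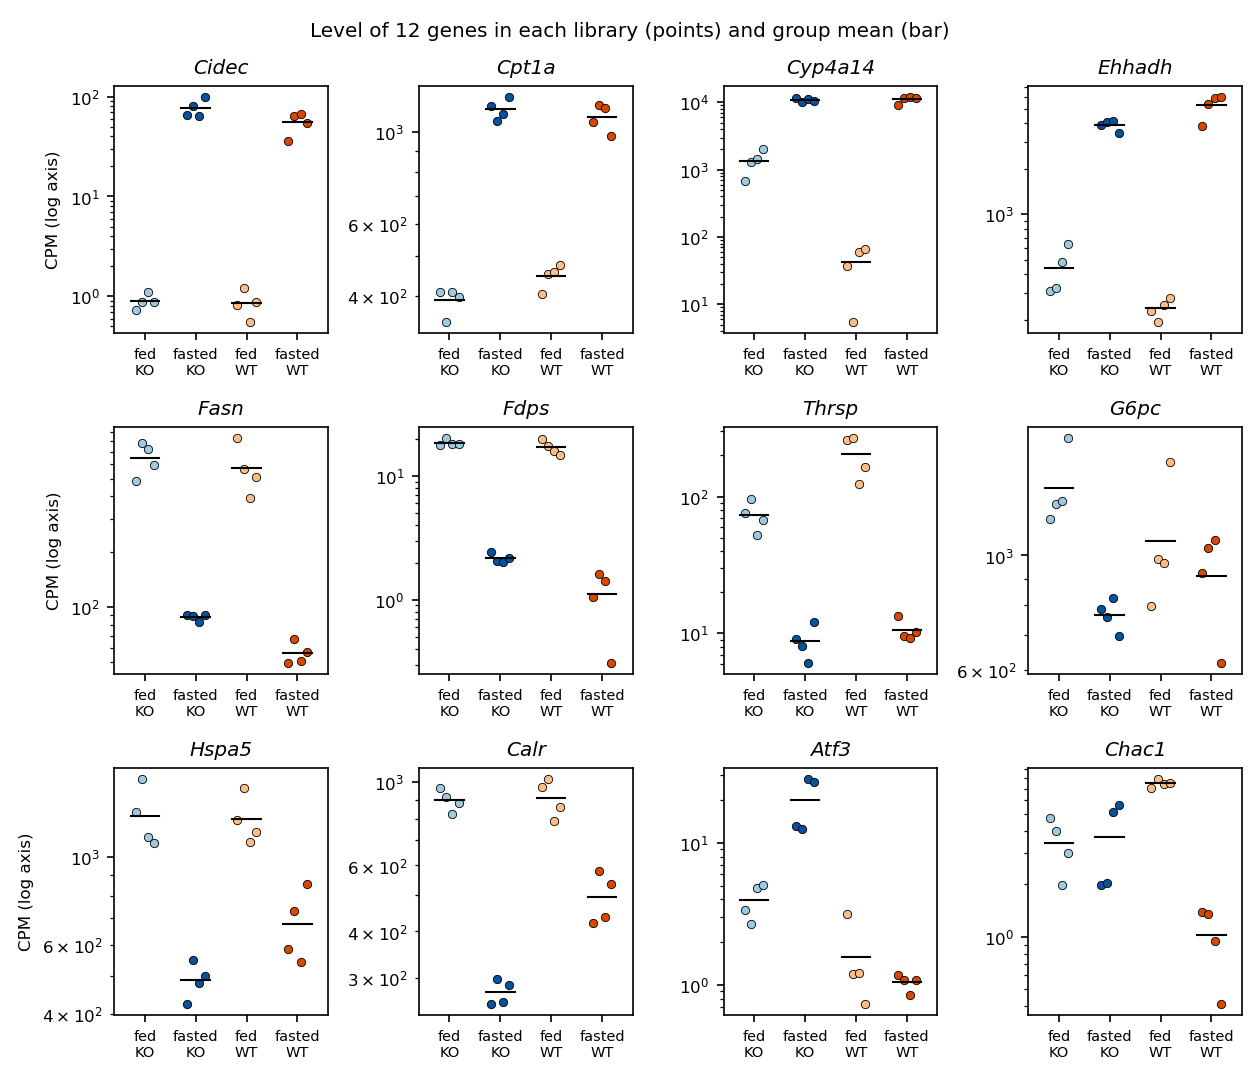
Level of 12 genes in CPM (log axis) in each library, with points for the 4 libraries of a group and a bar at the group mean, for fed KO, fasted KO, fed WT and fasted WT. Cidec lies at 0.734 to 1.11 CPM in fed KO and 63.99 to 98.6 CPM in fasted KO libraries. Cyp4a14 starts from a higher fed level in KO than in WT, and Atf3 is highest in the 4 fasted KO libraries.

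Genes of fatty acid oxidation rose almost throughout. Of 37 tested, 34 were higher and 0 lower, against 21.1% and 20.3% of all genes, with a median log2 fold change of 0.96. Cpt1a (ENSMUSG00000024900, chr19:3322334-3385733, plus strand), the carnitine acyltransferase that admits long-chain fatty acids to mitochondria, was at 409, 346, 409 and 398 CPM fed and 1158, 1063, 1109 and 1215 CPM fasted (1.54 ± 0.08; adjusted p = 3.57e-10). Slc25a20, the carnitine-acylcarnitine carrier that works with Cpt1a, rose by 1.13 ± 0.10 and the peroxisomal thiolase gene Acaa1a by 1.21 ± 0.08. Ehhadh, the peroxisomal bifunctional enzyme, was at 311, 328, 482 and 637 CPM fed and 3928, 4093, 4148 and 3469 CPM fasted, a rise of 8.9-fold (3.15 ± 0.22). The fed libraries spread more widely than the fasted ones, and the groups did not overlap, as the naming rule required.

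The omega-hydroxylase genes Cyp4a10 and Cyp4a14, classical PPAR alpha targets, had high fed levels in KO liver. Cyp4a14 was at 691, 1322, 1429 and 2006 CPM in fed KO libraries and 11777, 10249, 11228 and 10554 CPM in fasted KO libraries (3.01 ± 0.55; adjusted p = 0.000901). In WT libraries it ranged over 5.52 to 65.5 CPM fed and 9154 to 11913 CPM fasted (8.05 ± 0.70). Fasted levels of the genotypes overlapped while fed levels did not, and the KO response was the smaller, with a difference of -5.05 ± 0.77 (adjusted p = 0.0116). Cyp4a10 was at 417, 749, 708 and 831 CPM in fed KO and 7544, 6775, 6898 and 6837 CPM in fasted KO libraries (3.37 ± 0.40). In WT it ranged over 31.7 to 179 CPM fed and 7467 to 8214 CPM fasted (difference -2.77 ± 0.53, adjusted p = 0.0244), and this difference lost its call without fed KO replicates 3 or 4, fasted KO replicates 3 or 4 or fasted WT replicate 2 (adjusted p up to 0.0568) and without fasted WT replicates 2 and 4 together (0.0779). Members of the Cyp4a family are near-identical copies and reads that align to several places were not counted, so the split between them is uncertain. The 3 members of the oxidation list that were not called were Echs1, Etfa and Acaa2.

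Ketone body genes had 5 higher and 0 lower of 7, against 21.1% and 20.3% of all genes. Other PPAR alpha targets split, with 13 higher and 2 lower of 26 (median 0.55), against the same shares. Retsat, a retinol saturase gene, rose by 2.63 ± 0.18, the apolipoprotein gene Apoa4 by 2.72 ± 0.26 and the droplet protein gene Plin5 by 2.16 ± 0.23. Ppara itself, the gene of the receptor, was at 50.7, 53.9, 56.7 and 27.8 CPM fed and 118, 122, 114 and 103 CPM fasted (1.27 ± 0.17). Every fasted library was higher, and fed KO replicate 4 was the lowest of all. The hepatokine gene Fgf21 was at 13.5, 46.5, 35.8 and 46.9 CPM fed and 114, 102, 165 and 166 CPM fasted (1.94 ± 0.34; adjusted p = 0.000624). In WT libraries Fgf21 ranged over 1.72 to 3.73 CPM fed and 7.59 to 14.7 CPM fasted (1.99 ± 0.43), and the responses were not shown to differ (difference -0.05 ± 0.53, adjusted p = 0.977).

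Some well-known fasting genes did not pass the test in KO liver. Pdk4, the kinase that switches off pyruvate dehydrogenase, was at 49.7, 58.6, 83.3 and 168 CPM fed and 48.5, 69.6, 87.9 and 40.1 CPM fasted (-0.55 ± 0.43; adjusted p = 0.335). The groups overlapped and fed KO replicate 4 was the highest library. Its WT value was 1.08 ± 0.46 (adjusted p = 0.0876), and the difference between genotypes was not called (adjusted p = 0.218). Angptl4, a lipoprotein lipase inhibitor gene, stood at -0.01 ± 0.20 (adjusted p = 0.976), and Ppargc1a, a coactivator gene of mitochondrial and gluconeogenic programmes, at 0.58 ± 0.28 (adjusted p = 0.118).

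Gluconeogenic genes moved in both directions, with 10 higher and 3 lower of 26 (median 0.24), against 21.1% and 20.3% of all genes. Pck1, the cytosolic gene of phosphoenolpyruvate synthesis, was at 2519.6, 2208, 2139 and 2799 CPM fed and 3770.3, 3706, 3203 and 3374 CPM fasted (0.54 ± 0.13; adjusted p = 0.00315). G6pc, whose enzyme frees glucose from glucose 6-phosphate in the last step, went the other way. It was at 1177, 1256, 1274 and 1687 CPM in fed KO and 788, 760.0, 825 and 698 CPM in fasted KO libraries (-0.81 ± 0.19; adjusted p = 0.00303). No fasted library reached the lowest fed one. In WT livers G6pc stood at -0.22 ± 0.19 (adjusted p = 0.395), and the 2 responses were not shown to differ (adjusted p = 0.277). Pcx, the mitochondrial pyruvate carboxylase gene, rose by 0.75 ± 0.08, the alanine transaminase gene Gpt2 by 1.34 ± 0.12 and the tyrosine transaminase gene Tat by 1.21 ± 0.16.

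Glycolysis and glycogen genes had 2 higher and 15 lower of 24 (median -0.54), with 1 higher without fed KO replicates 1 or 4 or fasted KO replicates 1 or 2. Pklr, the liver pyruvate kinase gene and a ChREBP target, went from 307 ± 25.8 to 76.01 ± 13.9 CPM (-2.01 ± 0.14). Mlxipl, which encodes ChREBP, stood at -1.42 ± 0.11, the glycogen phosphorylase gene Pygl at -1.41 ± 0.07 and the fructokinase gene Khk at -0.84 ± 0.08.

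Of 25 fat synthesis genes, 16 fell and 5 rose (median -0.97). Fasn (ENSMUSG00000025153, chr11:120805846-120824547, minus strand), the fatty acid synthase gene, was at 483, 781, 726 and 596 CPM fed and 90.95, 88.96, 82.6 and 90.5 CPM fasted, 7.32-fold lower (-2.87 ± 0.20; adjusted p = 5.49e-08). Thrsp, a regulator gene of lipogenesis, was at 76.1, 95.3, 52.2 and 67.1 CPM fed and 9.07, 8.06, 6.1 and 12.2 CPM fasted (-3.03 ± 0.29). Groups were clear of each other for both, as the naming rule required. Acly, which makes cytosolic acetyl-CoA, stood at -2.2 ± 0.17, the carboxylase gene Acaca at -1.49 ± 0.13, Srebf1, the gene of SREBP-1, at -1.78 ± 0.21, and the desaturase gene Scd1 at -1.11 ± 0.28. Insig2, whose product holds SREBP proteins in the endoplasmic reticulum, rose from 213 ± 17.2 to 685 ± 134 CPM (1.69 ± 0.15).

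Cholesterol synthesis was the list with the lowest median, -1.65, where 24 of 26 genes fell and none rose. Fdps, the farnesyl diphosphate synthase gene, was at 17.6, 20.1, 18.04 and 18.2 CPM fed and 2.43, 2.07, 2.0 and 2.18 CPM fasted (-3.09 ± 0.20; adjusted p = 4.2e-09). Both groups were tight and 8.51-fold apart. Further members fell by less: Dhcr7, the last enzyme of one branch, stood at -2.01 ± 0.13, the kinase gene Pmvk at -1.87 ± 0.13, the epoxidase gene Sqle at -1.87 ± 0.31 and the desaturase gene Sc5d at -1.55 ± 0.10. The 2 members not called were Nus1 and Hsd17b7.

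**Figure D2:**
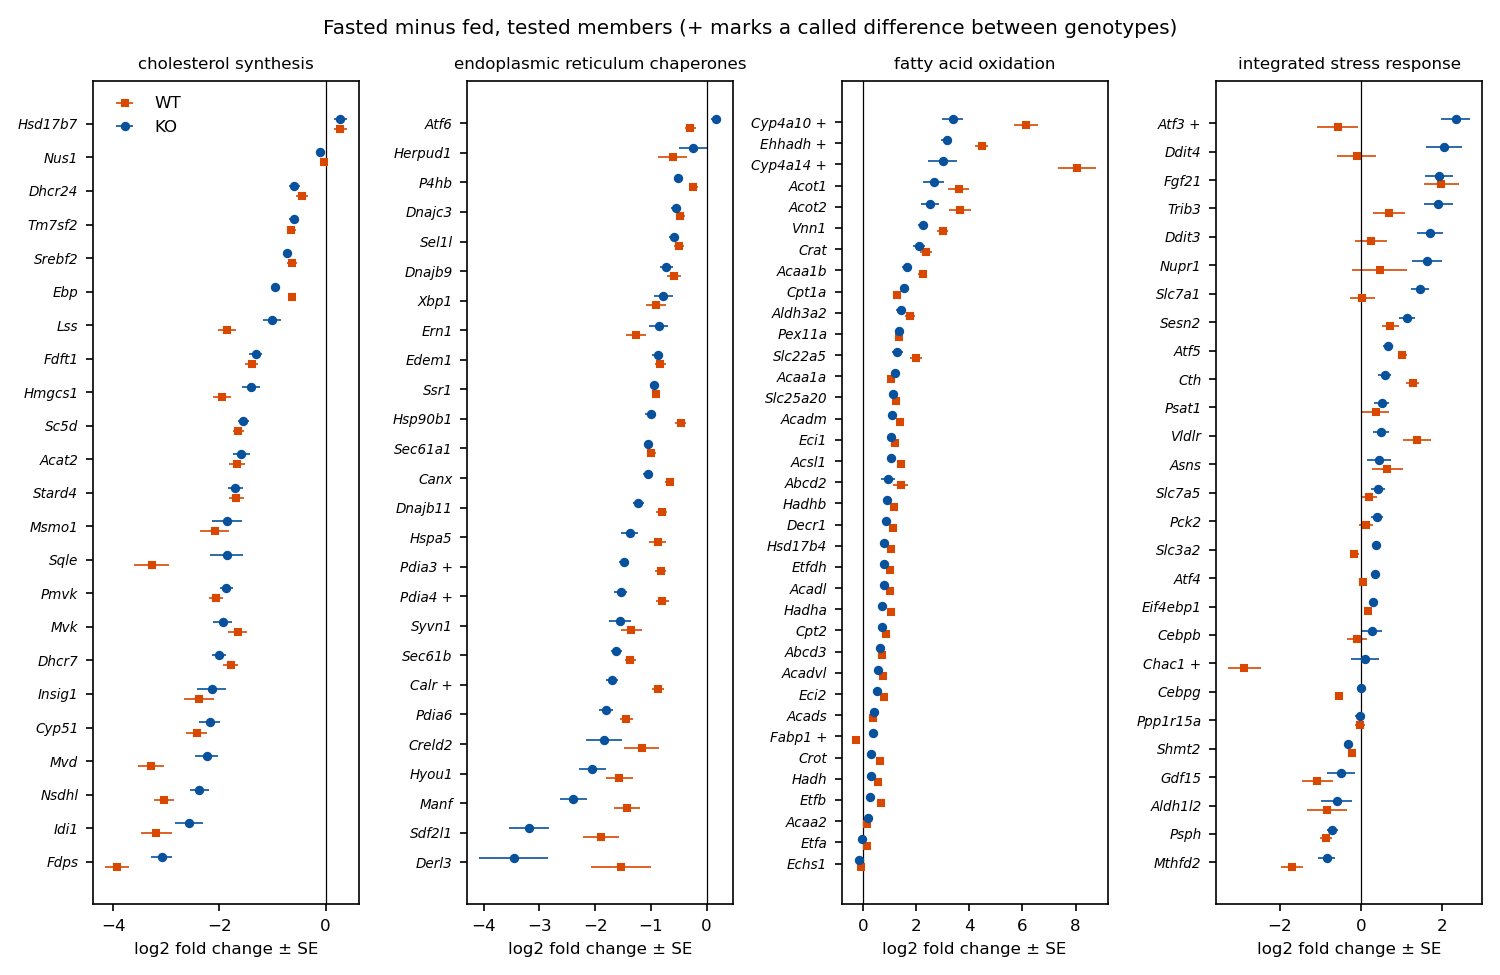
Log2 fold change, fasted minus fed, with SE for tested members of 4 lists in KO (circles) and WT (squares); a plus sign after a symbol marks a called difference between genotypes. Among the genes drawn, in KO, Hsd17b7 is the 1 cholesterol gene and Atf6 the 1 chaperone gene to the right of 0, and Echs1 and Etfa are the 2 oxidation genes to its left.

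The endoplasmic reticulum folds secreted proteins, and its chaperones and disulfide isomerases are targets of ATF6 and XBP1 in the unfolded protein response. A known element in their promoters is CCAAT, then 9 bases, then CCACG, which was searched on both strands of the 250 bases before the RefSeq start of each gene (GRCm38.p6). This search was added after the fold changes had been seen. The upstream stretches of 5 chaperone genes, shown because these genes fell together, carry the pair. They lie at chr10:86705518-86705671 for Hsp90b1 (minus strand, 2 pairs), chr8:84847060-84847108 for Calr (minus), chr12:17266476-17266524 for Pdia6 (plus), chr15:88819505-88819553 for Creld2 (plus) and chr10:75893227-75893275 for Derl3 (plus). Each is written 5′ to 3′ along its gene's strand, with CCAAT and CCACG, or their reverse complements, in capitals.
Hsp90b1: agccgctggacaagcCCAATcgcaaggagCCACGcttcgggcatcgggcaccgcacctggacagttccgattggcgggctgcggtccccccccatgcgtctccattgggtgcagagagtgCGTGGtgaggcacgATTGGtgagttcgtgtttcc
Calr: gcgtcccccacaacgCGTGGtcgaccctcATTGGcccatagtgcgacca
Pdia6: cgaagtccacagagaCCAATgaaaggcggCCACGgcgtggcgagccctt
Creld2: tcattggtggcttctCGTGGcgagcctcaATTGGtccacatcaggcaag
Derl3: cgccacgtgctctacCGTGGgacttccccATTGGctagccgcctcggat
The pair was found in 18 of the tested genes with a window, or 0.172%, and in 0.130% of all promoters in the table. Of these 18 genes, 15 were lower and 1, Acnat2, was higher in fasted KO liver, where 20.3% of all tested genes were lower and 21.1% higher. The chaperone list held 9 of them, all lower, and of the 9 genes outside it 6 were lower. Other motifs, set before this pair, were searched in the same windows. The heat shock element core (GAANNTTC) was in 7 of 19 heat shock genes, against 6.2% of tested genes. The E-box (CACGTG) was in 5 of 16 clock genes, against 9.78%. The sterol regulatory element (TCACNCCAC) was in 1 of 18 cholesterol and 0 of 21 fat synthesis genes, against 1.32%. The DR1 core (AGGTCANAG) was in 0 of 28 oxidation genes, against 1.66%. A match describes letters in the window and shows no binding.

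**Figure D3:**
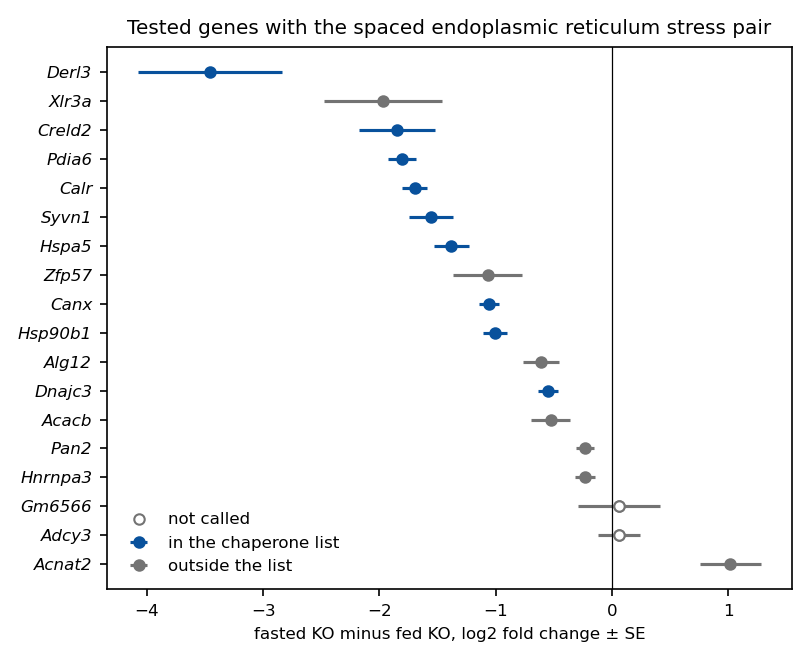
Log2 fold change with SE, fasted KO minus fed KO, of the 18 tested genes whose 250 upstream bases hold the spaced pair. The 9 chaperone genes (blue) lie left of 0, and the open circles, Gm6566 and Adcy3, were not called.

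Of 26 chaperone genes tested, 24 fell and none rose (median -1.14), and 25 were lower in WT liver (median -0.88). The number lower in KO stayed at 24 whichever KO library was left out. Hspa5 (ENSMUSG00000026864, chr2:34771970-34777547, plus strand), the chaperone BiP, was at 1299.7, 1578, 1125 and 1088 CPM fed and 425, 548, 480.3 and 501 CPM fasted (-1.38 ± 0.15; adjusted p = 1.36e-06). Calr, a lectin chaperone that binds calcium, was at 964, 913, 826 and 879 CPM fed and 256, 299, 260.0 and 289 CPM fasted (-1.7 ± 0.11; adjusted p = 1.8e-09). In both, every fasted library lay well below every fed one. Derl3, a gene of the export channel for misfolded proteins, was at 3.43, 11.8, 3.46 and 2.47 CPM fed and 0.588, 0.689, 0.334 and 0.311 CPM fasted (-3.46 ± 0.62). Sdf2l1, a BiP partner, was at 26.1, 43.2, 22.96 and 19.4 CPM fed and 3.32, 4.46, 2.46 and 2.1 CPM fasted (-3.18 ± 0.36). Both were low in all fasted libraries, and the rule that named them required no overlap. The disulfide isomerase gene Pdia6 (-1.81 ± 0.12) and the translocon gene Sec61b (-1.62 ± 0.10) also fell.

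By edgeR, the KO fall was called larger than the WT fall for 3 of these 26 genes, where a difference was called for 1.70% of all genes. A difference had an unadjusted p under 0.05 by edgeR for 13 of the 26, a level at which all genes were not counted. DESeq2 called 6 of the 26, and 530 over all genes. Calr stood at -0.88 ± 0.11 in WT (difference -0.82 ± 0.15, adjusted p = 0.0116). The disulfide isomerase gene Pdia3 stood at -1.48 ± 0.09 in KO and -0.83 ± 0.09 in WT (difference -0.66 ± 0.13, adjusted p = 0.0164), and Pdia4 at -1.54 ± 0.11 and -0.80 ± 0.11 (difference -0.75 ± 0.16, adjusted p = 0.0244). Without fasted WT replicates 2 and 4, the adjusted p was 0.0656 for Calr, 0.0821 for Pdia3 and 0.11 for Pdia4. The Pdia4 difference was also lost without fasted KO replicates 3 or 4, fed WT replicate 3 or fasted WT replicate 2.

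The integrated stress response is a translational arrest that raises ATF4 and its targets, among them amino acid enzymes, the factor CHOP and the hepatokine FGF21. Of 27 tested genes, 15 were higher and 3 lower in KO liver (median 0.43), against 5 and 6 in WT (median 0.05). Of all genes, 21.1% were higher and 20.3% lower in KO, and 16.2% and 18.3% in WT. The difference between genotypes itself was called by edgeR for 2 of the 27, Atf3 and Chac1, against 1.70% of all genes. At an unadjusted p under 0.05 by edgeR there were 13 of the 27, a level at which all genes were not counted. DESeq2 called 6 of the 27, and 530 over all genes. Atf3 (ENSMUSG00000026628, chr1:191170296-191218039, minus strand), a stress-induced factor, was at 3.34, 2.68, 4.8 and 5.05 CPM fed and 13.1, 12.5, 28.2 and 26.7 CPM fasted (2.35 ± 0.35; adjusted p = 0.000123). Fasted KO replicates 3 and 4 were above replicates 1 and 2, and all 4 were above every fed library. Ddit3, which encodes CHOP, was at 7.75, 17.4, 11.2 and 9.07 CPM fed and 24.5, 27.5, 42.1 and 54.9 CPM fasted (1.71 ± 0.33). Trib3, a pseudokinase gene induced by CHOP, was at 49.9, 89.7, 56.2 and 38.8 CPM fed and 139.8, 134, 279 and 336 CPM fasted (1.92 ± 0.35). Replicates 3 and 4 were again the higher fasted libraries. The Trib3 call was lost when the KO libraries were fitted alone with the replicate number as a block (adjusted p = 0.064).

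Inhbe, the gene of the activin E subunit, was at 19.1, 36.2, 20.8 and 22.3 CPM fed and 187, 154, 297 and 282 CPM fasted (3.22 ± 0.25; adjusted p = 3.99e-07), and its rise in WT was 1.38 ± 0.24. Ddit4, an inhibitor gene of mTORC1, rose by 2.06 ± 0.45 and the arginine transporter gene Slc7a1 by 1.47 ± 0.23. Atf4 itself rose by 0.35 ± 0.10. The serine synthesis gene Psph (-0.71 ± 0.14) and the mitochondrial folate gene Mthfd2 (-0.85 ± 0.20) fell. Psat1, also a serine synthesis gene, rose (0.51 ± 0.18; edgeR adjusted p = 0.0262), with overlapping groups. Gdf15, a stress hormone gene, stood at -0.49 ± 0.34 (adjusted p = 0.267) and the asparagine synthetase gene Asns at 0.45 ± 0.29 (adjusted p = 0.24).

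Chac1, a glutathione-degrading enzyme gene of the same pathway, was at 4.77, 4.02, 1.96 and 3.01 CPM fed and 1.97, 2.03, 5.14 and 5.63 CPM fasted in KO (0.10 ± 0.35; adjusted p = 0.84), with overlapping groups. In WT it ranged over 7.05 to 7.92 CPM fed and 0.413 to 1.38 CPM fasted (-2.88 ± 0.40), and the responses differed by 2.98 ± 0.54 (adjusted p = 0.0142; 0.0657 without fasted WT replicates 2 and 4). Cytosolic tRNA synthetase genes, many of them ATF4 targets, had 5 higher and 4 lower of 20, near the 21.1% and 20.3% of all genes. The difference between genotypes was called by edgeR for 4 of the 20, Iars and Cars among them, against 1.70% of all genes. DESeq2 also called 4. Lars rose by 0.77 ± 0.10 and Iars by 0.50 ± 0.09, while Wars stood at -0.88 ± 0.11 and Cars at -0.36 ± 0.10.

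Insulin signalling and FOXO genes had 6 higher and 6 lower of 27, close to the 21.1% and 20.3% of all genes. With library totals, 11 were lower. The early growth response gene Egr1 stood at -2.01 ± 0.31 (adjusted p = 0.000226), the receptor substrate gene Irs2 at -0.44 ± 0.32 (adjusted p = 0.299) and Igfbp1 at 0.52 ± 0.25 (adjusted p = 0.115). Glucocorticoid targets had 8 higher and 4 lower of 25 (median 0.63), against the same shares of all genes. The number higher was 5 without fed KO replicates 1, 2 or 3 or fasted KO replicate 4. The kinase gene Sgk1 was at 34.3, 79.4, 65.8 and 85.99 CPM fed and 274, 250.1, 318 and 301 CPM fasted (2.11 ± 0.27; adjusted p = 4.08e-05). Clock genes had 6 higher and 4 lower of 19, against 21.1% and 20.3% of all genes. The period gene Per3 stood at 2.75 ± 0.48, the activator gene Npas2 at -1.37 ± 0.29 and the repressor gene Nr1d1 at -0.97 ± 0.24.

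Amino acid and urea genes had 25 higher and 12 lower of 54, against 21.1% and 20.3% of all genes. Within the urea cycle, Cps1 (0.70 ± 0.11), Asl (1.24 ± 0.17) and Arg1 (0.95 ± 0.15) rose, Otc fell (-0.74 ± 0.14) and Ass1 stood at -0.05 ± 0.10 (adjusted p = 0.744). Mat1a, the liver methionine adenosyltransferase gene, was at 4038, 4365, 4160.4 and 4368 CPM fed and 13181, 11131, 10445 and 11851 CPM fasted (1.46 ± 0.09), a smaller rise than in WT (2.4 ± 0.09; difference -0.94 ± 0.13, adjusted p = 0.00239). Amt, of the glycine cleavage system, fell (-0.62 ± 0.07), with a WT value of -0.15 ± 0.07 (difference -0.47 ± 0.09, adjusted p = 0.0161).

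For respiratory complex subunits encoded in the nucleus, 2 of 77 genes rose and 20 fell in KO, against 21.1% and 20.3% of all genes. In WT, 10 rose and 3 fell, against 16.2% and 18.3% of all genes. The difference between genotypes was called for 0 of the 77 by edgeR, against 1.70% of all genes, and for 0 by DESeq2. At an unadjusted p under 0.05 by edgeR there were 8, a level at which all genes were not counted. Falls in KO numbered 10 without fasted KO replicate 3, and rises 0 or 1 without fed KO replicates 1 or 4 or fasted KO replicates 1, 3 or 4. The median was -0.08 and every called fall was under 0.5 on the log2 scale. With library totals the count was 0 higher and 31 lower. Ribosomal protein genes had 1 higher and 38 lower of 70 (median -0.21). The share of reads from the mitochondrial genome was 6.35% ± 0.251 fed and 7.14% ± 0.286 fasted (SD, n = 4; adjusted p = 0.0714 by the exact permutation test over the 15 library measures). Of 13 protein genes of that genome 7 were tested and 4 were higher, with mt-Nd5 at 0.71 ± 0.11. Mitochondrial carriers had 13 higher and 7 lower of 40, against 21.1% and 20.3% of all genes. Among them the targeted gene stood at 1.05 ± 0.24 (adjusted p = 0.00319) in the KO libraries, a call lost with the KO libraries alone and the replicate block (adjusted p = 0.0812).

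Proliferation genes had 1 higher and 22 lower of 28 (median -1.15), against 21.1% and 20.3% of all genes. In WT, 1 was higher and 10 were lower, against 16.2% and 18.3% of all genes. The difference between genotypes was called for 0 of the 28 by edgeR (3 at an unadjusted p under 0.05), against 1.70% of all genes, and for 1 by DESeq2. The mitotic kinase gene Aurkb stood at -1.91 ± 0.40, the nucleotide reductase gene Rrm2 at -1.84 ± 0.22 and the replication helicase gene Mcm5 at -1.22 ± 0.23. Among 26 interferon-stimulated genes, none rose and 20 fell, and 20 fell in WT. The signalling factor gene Stat2 stood at -0.70 ± 0.10, the RNA sensor gene Oas2 at -1.08 ± 0.20 and the tetherin gene Bst2 at -0.72 ± 0.14. Matrix genes had 1 higher and 18 lower of 33, against 21.1% and 20.3% of all genes. The collagen genes Col4a1 and Col6a3 stood at -0.72 ± 0.11 and -0.85 ± 0.10 and the matrix protease gene Mmp14 at 0.66 ± 0.09. Summed stellate cell markers ran from 715.8 to 811 CPM fed and 699.5 to 760.2 CPM fasted. Of 16 members, 5 were lower, against 20.3% of all genes. Summed macrophage markers ran from 671 to 777.8 CPM fed and 534.5 to 795.9 CPM fasted. Endothelial markers summed to 724.7 to 764.1 CPM fed and 606.4 to 687.9 CPM fasted, without overlap (adjusted p = 0.0714 by the exact permutation test). Of 15 members, 1 was higher and 7 were lower, against 21.1% and 20.3% of all genes. Bile duct markers summed to 76.4 to 86.1 CPM fed and 86.8 to 117 CPM fasted, also without overlap (adjusted p = 0.0714 by the exact permutation test). Krt23 alone made up 13.1 to 15.8 CPM of the sum fed and 35.2 to 64.0 CPM fasted. Spp1 made up 42.2 to 52.2 CPM fed and 23.5 to 38.1 CPM fasted. Of 7 tested, Krt23 was higher and Spp1 lower, and the median was -0.42, opposite in sign to the difference of the sums. The part of these cells in the changes was not tested.

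NRF2 and glutathione genes had 1 higher and 11 lower of 21 in KO, against 21.1% and 20.3% of all genes. In WT, 6 were higher and 5 lower, against 16.2% and 18.3% of all genes. The difference was called by edgeR for 2 of the 21, Nqo1 and Ugdh, against 1.70% of all genes, and by DESeq2 for 6. At an unadjusted p under 0.05 by edgeR there were 11, a level at which all genes were not counted. The rate-limiting subunit gene of glutathione synthesis, Gclc, stood at -1.16 ± 0.14. Growth hormone axis genes had 2 higher and 9 lower of 20, against 21.1% and 20.3% of all genes in KO. The receptor gene Ghr stood at -0.61 ± 0.09, its transducer gene Stat5b at -0.78 ± 0.09 and Igf1 at -0.08 ± 0.10 (adjusted p = 0.59). In bile acid metabolism 6 were higher and 4 lower of 20, against 21.1% and 20.3% of all genes. The bile salt export pump gene Abcb11 stood at -1.14 ± 0.11, the phospholipid flippase gene Abcb4 at 0.81 ± 0.11 and Cyp7a1, the rate-limiting enzyme, at 0.63 ± 0.60 (adjusted p = 0.428). Lipid droplet genes had 11 higher and 3 lower of 21, against 21.1% and 20.3% of all genes. The number lower was 1 without fed KO replicate 2 or fasted KO replicates 1 or 4. The list holds the triglyceride lipase gene Pnpla2 at 1.05 ± 0.12 and the monoglyceride lipase gene Mgll at 1.78 ± 0.11.

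**Figure D4:**
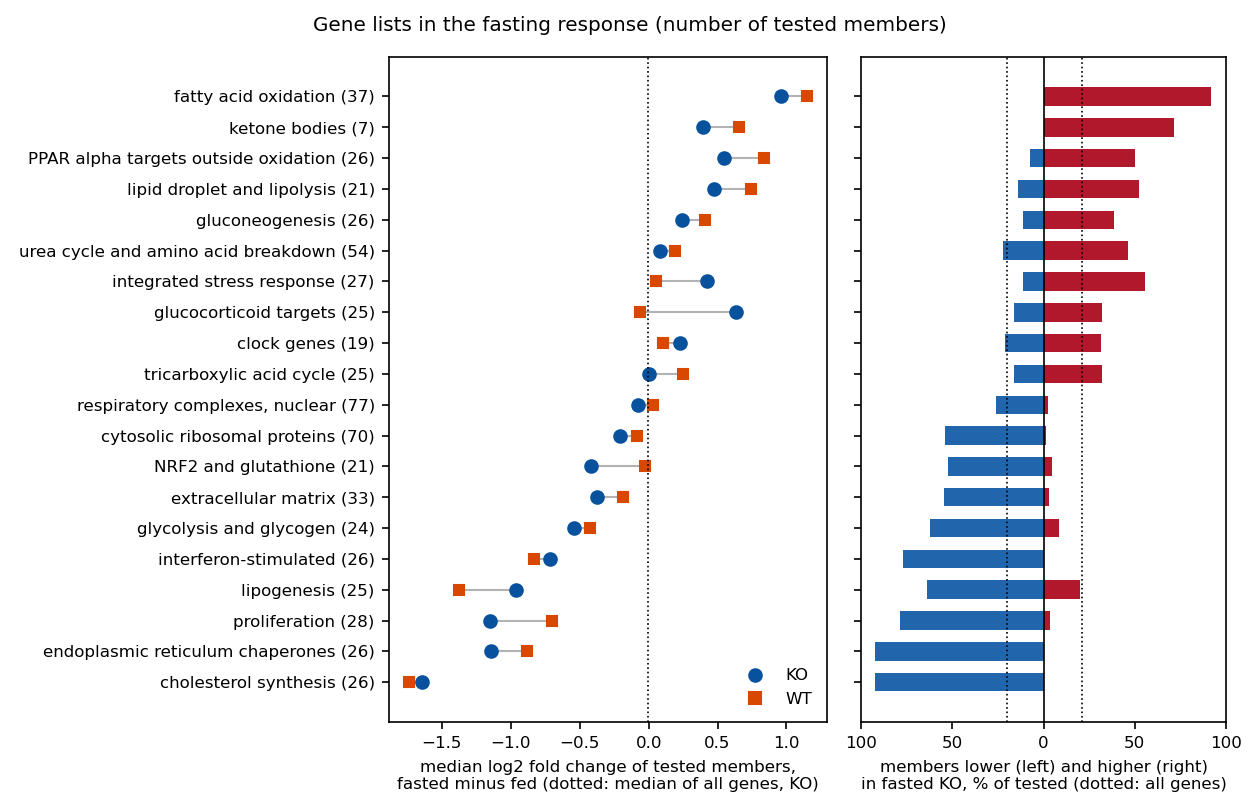
Left, median log2 fold change of the tested members of 20 lists in KO (circles) and WT (squares). Right, the percent of members called higher and lower in fasted KO, with dotted lines at 21.1% and 20.3% for all genes. Fatty acid oxidation has the highest KO median, 0.96, and cholesterol synthesis the lowest, -1.65.

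The KO and WT responses share no library. Of the 5754 genes called in KO, 57.3% were called in the same direction in WT, and of the 4799 called in WT, 68.7% were in KO. Across genes, which are not independent replicates, the fold changes had a Pearson r of 0.677 and a Spearman rho of 0.701. The test of the difference itself called 237 genes, or 1.70%. The KO response was the larger for 126 and the smaller for 111. That count ran from 87 without fasted KO replicate 3 to 523 without fed KO replicate 2, and was 72 without fasted WT replicates 2 and 4.

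Rhof had the largest positive difference by the naming rule, 4.09 ± 0.59 (adjusted p = 0.00263), with WT libraries at 0.12 to 0.609 CPM fed and 0.134 to 0.31 CPM fasted. Atf3 differed by 2.92 ± 0.60 (adjusted p = 0.0309), with WT libraries at 0.735 to 3.15 and 0.848 to 1.17 CPM. The angiogenic factor gene Prok1 was at 2.2, 3.06, 2.27 and 1.31 CPM fed and 0.714, 1.82, 1.5 and 1.63 CPM fasted in KO, and ranged over 4.92 to 7.31 CPM fed and 0.536 to 0.672 CPM fasted in WT (difference 2.77 ± 0.38, adjusted p = 0.00239). The fatty acid binding protein gene Fabp5 differed by 2.78 ± 0.54 (adjusted p = 0.0289). The difference kept its call in all 23 alternatives for Rhof and Prok1. It lost the call for Atf3 without fed KO replicate 3, fasted KO replicates 3 or 4, fed WT replicate 2 or fasted WT replicates 1, 2, 3 or 4 (adjusted p up to 0.0715) and with no filter on low counts (0.0558), and for Fabp5 without fed KO replicates 3 or 4, fasted KO replicates 2 or 3, fed WT replicate 2 or fasted WT replicate 1 (up to 0.0703). Without fasted WT replicates 2 and 4 together, the adjusted p was 0.109 for Atf3 and 0.0771 for Fabp5.

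The largest negative difference was that of Dmbt1, a mucin-like gene, at -7.73 ± 1.48 (adjusted p = 0.0278). It was at 26.2, 13.9, 8.33 and 2.91 CPM fed and 5.41, 2.03, 4.05 and 4.12 CPM fasted in KO, and at 0.254, 1.64, 0.139 and 0.588 and 52.3, 108, 4.46 and 14.3 CPM in WT. Acot3, a peroxisomal thioesterase gene with close paralogs, was at 4.81 to 22.2 CPM fed and 10.95 to 33.1 CPM fasted in KO, and at 0.20 to 1.44 and 21.8 to 39.6 CPM in WT (difference -4.3 ± 0.86, adjusted p = 0.032). Slc16a5, a monocarboxylate transporter gene, was at 10.03, 14.7, 12.3 and 21.3 CPM fed and 62.5, 49.9, 37.1 and 44.4 CPM fasted in KO, and ranged over 1.21 to 3.56 CPM fed and 35.7 to 48.9 CPM fasted in WT (difference -2.49 ± 0.42, adjusted p = 0.0134). The quinone reductase gene Nqo1 stood at -0.16 ± 0.15 in KO and 1.1 ± 0.17 in WT (difference -1.26 ± 0.23, adjusted p = 0.0116). The calls for Slc16a5 and Nqo1 held in all 23 alternatives. That of Dmbt1 was lost without fasted KO replicates 2, 3 or 4, fed WT replicates 1, 3 or 4 or fasted WT replicate 1 (adjusted p up to 0.0609), and that of Acot3 without fed KO replicate 3, fasted KO replicates 3 or 4, fed WT replicates 1, 2 or 4 or fasted WT replicates 1 or 2 (up to 0.0712) and with the replicate block (0.0653). Without fasted WT replicates 2 and 4 together, the adjusted p was 0.0656 for Dmbt1 and 0.0779 for Acot3.

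**Figure D5:**
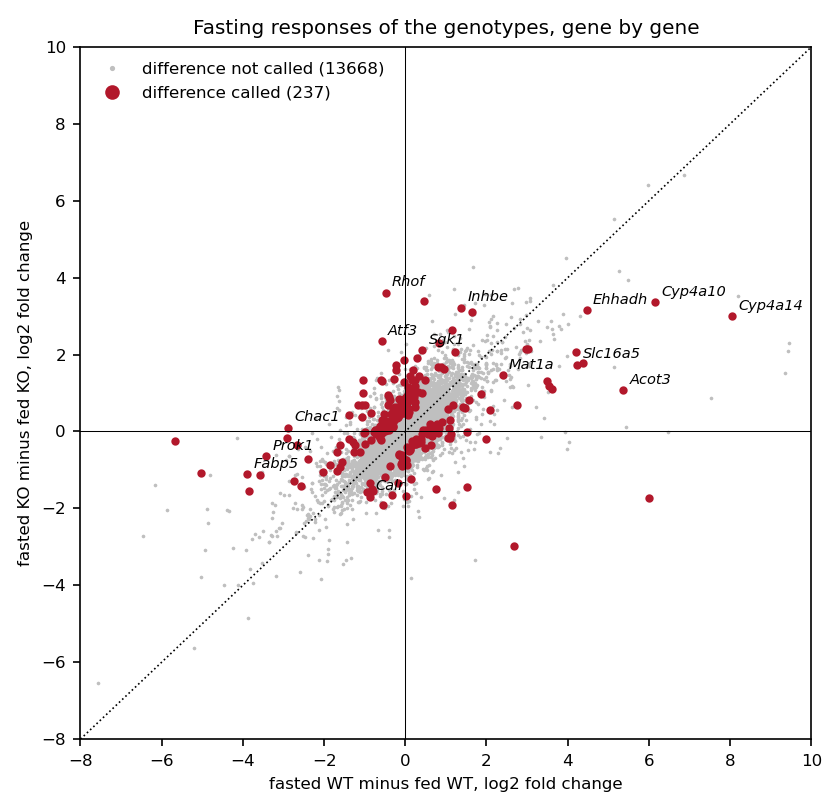
Log2 fold change, fasted minus fed, in KO (vertical) against WT (horizontal) for the tested genes, 13 of which lie outside the axes; red points are the 237 genes whose difference was called and the dotted line marks equal responses. Cyp4a14, Cyp4a10 and Acot3 lie far below the line, and Rhof and Atf3 above it.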

How the data were processed

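Polyadenylated RNA of 16 mouse liver samples was sequenced as stranded libraries from 500 ng of total RNA, per the labels' protocols. The authors deposited a table of raw read counts per gene. Per the submitters' processing notes, cutadapt 1.8, STAR 2.5.3a and HTSeq 0.9.1 were used with GRCm38. Which annotation release and strand option the counting used is not stated there or in the labels. Gene symbols and positions come from GENCODE M21 (GRCm38), and promoter sequences from RefSeq (GRCm38.p6).

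Rows that name no gene, which held 2.98% to 4.29% of reads as no-feature reads over all libraries, stayed out of library sizes. So did reads that aligned to several places, 32.0% to 39.3% in the KO and 40.4% to 45.8% in the WT libraries, without overlap. Genes were kept by filterByExpr, scaled by TMM and fitted over all 4 groups with edgeR 4.0.16 (R 4.3.3; glmQLFit, robust, and glmQLFTest), with Benjamini-Hochberg adjustment over all 13905 genes tested. DESeq2 1.42.0 served as an alternative. All fold changes are log2, fasted minus fed, with SE, and a difference is the KO response minus the WT response. The SE printed or drawn is approximate, and that of a difference need not follow from those of its parts. For Aurkb, a difference of 0.00075 had an SE of 0.0185, against 0.398 in KO and 0.574 in WT. Calls rest on the adjusted p and not on the SE. CPM levels and summed CPM are edgeR's, over library totals multiplied by the TMM factors, and are not compared between genes. Tested on simulated counts for this contrast, the procedure called 53 of 67 genes simulated with a 2-fold change, and 29 of 67 at 1.5-fold.

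Named genes were the 12 largest called rises and falls with an average log2 CPM of at least 1 and no overlap between groups, the 5 largest called differences in each direction, in each list at most 4 called genes ranked by p, and a fixed list of fasting genes, leaving out predicted genes among the first kinds. Arg1, Asl, Ass1, Otc, Atf4, Ddit3, Trib3, Psph, Mthfd2, Cars, Nqo1, Pdia4, Txnip, Gm15441 and Ugdh fall outside this rule and were chosen after their values were seen. The members and lists were chosen with earlier results of these data known. Library measures were compared with exact permutation tests. Alternatives were other scalings, filters, tests and thresholds, a replicate block, the KO libraries alone and leaving out libraries; WT counts under them, and the spaced promoter pair, were added after seeing the data. Some members of the lists are counted but not reported here by name or drawn.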

Additional observations from a re-analysis of the deposited data

Results flagged for a closer look

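In 14 of 262 groups of 4 values examined among the genes and library measures printed here, 1 KO library stood apart from the other 3 by the gap test for 4 samples. Chance flags about 1 in 20 such groups. In the fed KO group, replicate 2 was high for Derl3 (11.8 CPM, others 2.47 to 3.46) and Insig2 (238.5 CPM, others 202 to 206) and low for Cabyr (1.99 CPM, others 9.3 to 10.7). Fed KO replicate 1 was high for Fabp5 (41.2 CPM) and Per3 (2.41 CPM), low for Gclc (307.9 CPM, others 410.2 to 417) and high in the lymphocyte and neutrophil marker sum (11.8 CPM). Fed KO replicate 3 was low for Stat2 (75.5 CPM). In the fasted KO group, replicate 1 was high for Cyp4a10 (7544 CPM) and in the pancreatic transcript sum (87.1 CPM, others 5.27 to 5.67) and low for Mthfd2 (1.97 CPM). Fasted KO replicate 4 was high for Asns (87.8 CPM), replicate 3 low for Mgll (325.1 CPM), and replicate 2 low in the share of mitochondrial genome reads (6.72%). The calls of Cabyr, Derl3, Insig2, Gclc, Stat2, Per3, Mgll and Mthfd2 in KO held when each KO library was left out, whereas that of Fabp5 was lost without fed KO replicate 1 or fasted KO replicates 1, 3 or 4 (adjusted p up to 0.0977) and with no filter on low counts (0.0598).

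For 23 of the genes printed with a value, the KO response differed from the WT response by edgeR's test of the difference, adjusted over all genes tested. Ugdh, named above without a value, also had a called difference and is not among the 23. The KO value lay below the WT value for Dmbt1 (-7.73 ± 1.48), Cyp4a14 (-5.05 ± 0.77), Acot3 (-4.3 ± 0.86), Cyp4a10 (-2.77 ± 0.53), Slc16a5 (-2.49 ± 0.42), Ehhadh (-1.31 ± 0.29), Nqo1 (-1.26 ± 0.23), Mat1a (-0.94 ± 0.13), Calr (-0.82 ± 0.15), Pdia4 (-0.75 ± 0.16), Pdia3 (-0.66 ± 0.13) and Amt (-0.47 ± 0.09). It lay above for Iars (0.71 ± 0.13), Insig2 (0.87 ± 0.21), Cars (0.88 ± 0.15), Ctcflos (1.48 ± 0.21), Sgk1 (1.68 ± 0.37), Inhbe (1.84 ± 0.33), Prok1 (2.77 ± 0.38), Fabp5 (2.78 ± 0.54), Atf3 (2.92 ± 0.60), Chac1 (2.98 ± 0.54) and Rhof (4.09 ± 0.59). For Amt, Cars, Ctcflos, Cyp4a14, Mat1a, Nqo1, Prok1, Rhof and Slc16a5 the call held in all 23 alternatives at the threshold of 0.05.

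Calr, Chac1, Iars, Inhbe and Pdia3 lost the difference in 1 alternative, without fasted WT replicates 2 and 4, with an adjusted p of 0.0655 for Iars and 0.0691 for Inhbe. Ehhadh lost it with no filter on low counts (0.0889) and without fed KO replicate 3, fasted KO replicates 1, 2, 3 or 4, fed WT replicates 1, 2 or 3 or fasted WT replicates 2, 3 or 4 (adjusted p up to 0.116 over all alternatives). Insig2 lost it with the replicate block (0.0656), DESeq2 size factors (0.0518), library totals (0.061) and no filter (0.0963), and without fed KO replicates 1, 3 or 4, fasted KO replicates 2, 3 or 4, fed WT replicates 1, 2 or 3 or fasted WT replicates 1, 2 or 4 (up to 0.146). Sgk1 lost it with no filter (0.0659) and without fed KO replicates 3 or 4, fasted KO replicates 1, 2, 3 or 4, fed WT replicates 2, 3 or 4 or fasted WT replicates 1, 2 or 4 (up to 0.122).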

How the results depend on the processing

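At an adjusted p of 0.01, 2076 genes were higher and 1860 lower in fasted KO. The other alternatives kept the counts of higher and of lower genes within 1.5 times, from 2216 to 2963 higher and 2380 to 3601 lower where no library was left out. The count of differences between genotypes was 530 with DESeq2's Wald test, 23 at an adjusted p of 0.01 and 72 without fasted WT replicates 2 and 4. Leaving out 1 library gave 87 to 523, and fed KO replicates 2, 3 and 4, fasted KO replicates 2, 3 and 4, fed WT replicates 2 and 3 and fasted WT replicates 1 and 2 each moved it by over 1.5 times; the cause was not tested. No pairing by replicate number was seen: deviations of same-numbered fed and fasted KO libraries correlated at -0.119 to 0.005. Of the 4 fed KO libraries, 0 correlated best with their own number. With so few libraries, this check cannot exclude a pairing. With the replicate block, 2955 genes were higher and 2871 lower, and 218 differed between genotypes. The list median changed sign by more than the spread between libraries for insulin signalling and FOXO targets (-0.15 to 0.027 with 1 library left out), drug metabolism (-0.247 to 0.028), pancreatic transcripts (-2.99 to 6.38, and -0.28 with the KO libraries alone) and apolipoproteins (-0.041 with library totals). Within that spread it also changed sign for acute phase genes (-0.129 to 0.162 with 1 library left out, -0.0958 with library totals), p53 targets (-0.036 to 0.0845), hepatokines (-0.0993 to 0.0554, and 0.0843 with the replicate block), lymphocyte and neutrophil markers (-0.0862 to 0.46) and the tricarboxylic acid cycle (-0.0211 to 0.0317). With the replicate block, 1 cholesterol gene was called higher and 0 proliferation genes were. Among named genes no KO response or difference changed sign. At 19.6 to 24.1 M reads per KO library, simulated 1.5-fold changes were called in 29 of 67 genes. The simulation changed far fewer genes than were called here, which makes its adjusted threshold stricter. The share of small changes missed in these data is therefore not given by it.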

Other observations

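Gm15441 (ENSMUSG00000074398, chr3:96555765-96566801, minus strand), a gene that overlaps Txnip on the opposite strand, was at 0.286, 0.268, 0.422 and 0.34 CPM in fed KO and 34.4, 43.1, 38.5 and 21.6 CPM in fasted KO libraries (6.68 ± 0.38; edgeR adjusted p = 1.72e-08). Txnip, an inhibitor gene of thioredoxin and a ChREBP target, was at 297, 347, 274 and 533 CPM fed and 134, 160.4, 175 and 123 CPM fasted (-1.29 ± 0.26; adjusted p = 0.0014). Fasted and fed KO libraries did not overlap for either gene. The strand option of the counting is not stated, so reads of the pair cannot be told apart with certainty. Both genes lie outside the naming rule and were chosen after their values were seen.

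The promoter window of Fgf21 holds the C/EBP-ATF element TGATGNAAT on 1 strand, at chr7:45615607-45615645 (GRCm38.p6, minus strand, from RefSeq), with its fixed letters in capitals, shown because Fgf21 is a known ATF4 target that rose.
Fgf21: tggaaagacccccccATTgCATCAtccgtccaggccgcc
The element was found in 0.641% of windows of tested genes, and in 2 of 23 stress response genes with a window.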
